A study of Drosophila melanogaster with 12 samples.

Results

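The 7 opsin genes of Drosophila melanogaster were taken by name from the gene column of the count files: ninaE, Rh2, Rh3, Rh4, Rh5, Rh6 and Rh7. They are 7 of 17737 genes counted, and all 7 were among the 11223 genes that passed the filter on low counts. RNA depleted of ribosomal RNA was sequenced from heads of newly eclosed adult flies in 4 groups with 3 libraries each: females with the Nab2 null allele Nab2ex3, females with the allele Nab2pex41 that the submitters label wild type, males with Nab2ex3 and males with Nab2pex41. Nab2 encodes a zinc finger protein that binds polyadenosine RNA. Each library was made from 60 pooled heads, so its values are averages over flies and over all tissues of the head.

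Opsins are the light-sensing receptors of photoreceptor cells, and each binds a vitamin A derived chromophore to form a rhodopsin. Most fly photoreceptors make a single opsin. The outer photoreceptors of every ommatidium, the unit of the compound eye, make the ninaE product Rh1. Of the inner photoreceptors, R7 makes Rh3 or Rh4, and the R8 cell beneath it makes Rh5 or Rh6. Rh5 lies below Rh3 in the pale type of ommatidium and Rh6 lies below Rh4 in the yellow type. Rh2 is the opsin of the ocelli, the simple eyes on top of the head, and Rh7 has been reported in circadian pacemaker neurons of the brain. In these libraries of whole heads, fewer cells of a type and less RNA per cell cannot be told apart.

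The 12 libraries held 23648813 to 30751922 counts assigned to genes. Nab2 itself had 13, 20 and 32 counts in null females against 1697, 1612 and 1362 counts in wild-type females. In males it had 82, 15 and 11 counts in null heads against 1635, 1946 and 1897 counts in wild-type heads. Every library thus matched the genotype of its label, while the sex of the label was not checked here. One library stood apart: null female library 1 differed from its 2 replicates by 126 and 104 times the counting variance (chi-square per degree of freedom), against 5.86 to 37.5 for all other replicate pairs. It had the highest level of 6 opsin RNAs among the null females and the lowest level of Rh7, so results for females are also given without it.

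Genotype went with one large difference among the opsins, a rise of Rh5 RNA in null heads of both sexes. Smaller rises of ninaE and Rh2 and a small fall of Rh7 passed the test in females and in the average of both sexes, whereas Rh3, Rh4 and Rh6 did not. A gene was called changed at a Benjamini-Hochberg adjusted p under 0.05 in edgeR's quasi-likelihood test over all 11223 genes. In females, 3 of 7 opsin genes were called higher in null heads and 1 lower, where 31.8% of all genes tested were called, 18.2% higher and 13.6% lower. In males, 1 of 7 was called, and it was higher, where 9.93% of all genes were called and 4.89% were higher. In the mean of the 2 sexes' changes, 3 were called higher and 1 lower, against 18.4% and 16.0% of all genes, or 34.4% in all. Without null female library 1, 3 opsin genes were called in females and 3 in males, where 23.2% and 16.1% of all genes were called in the same refit.

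**Figure D1:**
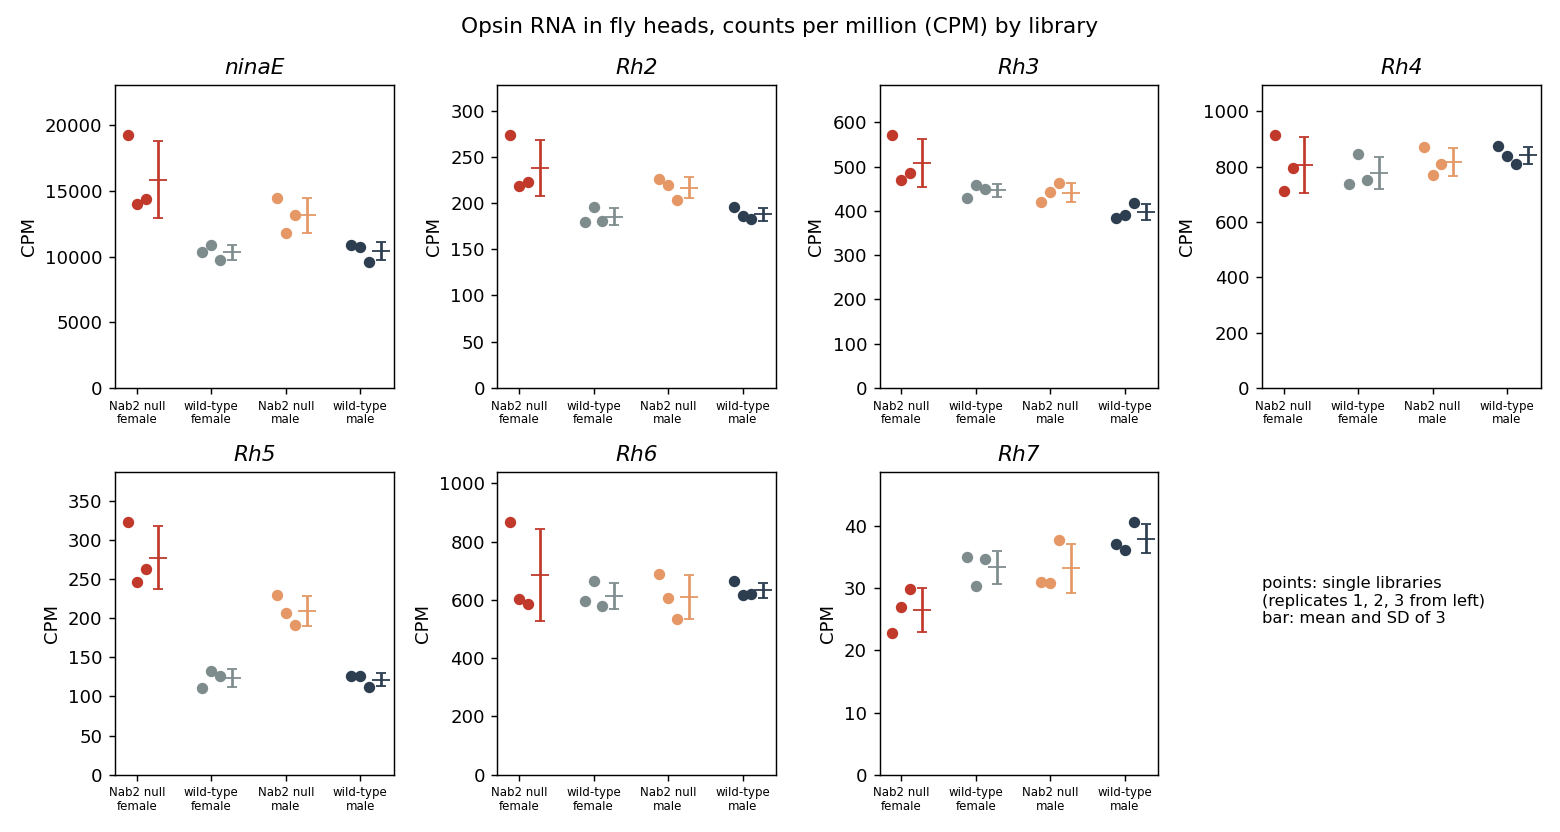
Level, in CPM (counts per 1000000 counts), of each opsin gene in each of the 12 libraries, with the mean and SD of the 3 libraries of a group beside the points; every axis starts at 0. Rh5 sits between 191.8 and 323.1 CPM in the 6 null libraries and between 110.8 and 133.1 CPM in the 6 wild-type libraries, while the points of Rh4 overlap between genotypes in both sexes.

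The opsin of the outer photoreceptors was by far the most abundant. Levels are given as counts per 1000000 counts (CPM), with library totals scaled by TMM. ninaE (FBgn0002940) lies on chromosome arm 3R from 19886255 to 19888206, minus strand, and its exons cover 1588 bases; this and the following positions are from the BDGP6.54 annotation. It had 19225.6, 14009.7 and 14365.3 CPM in null females, against 10368.4, 10867.2 and 9741.2 CPM in wild-type females. In males it had 14459.6, 11782.5 and 13172.0 CPM in null heads, against 10888.8, 10722.5 and 9611.8 CPM in wild-type heads. Every null library was above every wild-type library, and null female library 1 was the highest of all 12. The change in females was 0.62 on the log2 scale (SE 0.14, 95% interval 0.32 to 0.92), or 1.54-fold, with an adjusted p of 0.0068 in edgeR's test. Without null female library 1 it was 0.45, with an adjusted p of 0.011. The change in males was 0.34 (SE 0.14, adjusted p = 0.16) and did not pass, although it passed once null female library 1 was left out of the shared fit (0.34, adjusted p = 0.032). Over both sexes ninaE rose by 0.48 (SE 0.098, adjusted p = 0.0031).

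The 2 opsins of the R7 cells changed little. Rh3 (FBgn0003249), an ultraviolet-sensitive opsin, is a gene of 1 exon on 3R from 20081060 to 20082450, minus strand. It had 570.4, 469.7 and 485.7 CPM in null females, against 430.0, 458.9 and 449.1 CPM in wild-type females, and 419.0, 442.7 and 461.8 CPM in null males, against 384.3, 390.9 and 418.1 CPM in wild-type males. The null libraries lay above the wild-type libraries of the same sex without overlap, by small margins. Its log2 change was 0.19 in females (SE 0.087, adjusted p = 0.11), 0.15 in males (SE 0.087, adjusted p = 0.34) and 0.17 over both sexes (SE 0.062, adjusted p = 0.051), and none of these passed. DESeq2 put the change over both sexes at 0.16 with an adjusted p of 0.024, which does pass.

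Rh4 (FBgn0003250), the other ultraviolet-sensitive opsin, lies on 3L from 16852527 to 16862517, minus strand. The genes sina, sinah and CG13029 lie within the span of Rh4, but none overlaps its exons. Rh4 had 912.9, 710.3 and 795.2 CPM in null females, against 737.5, 845.1 and 750.5 CPM in wild-type females. It had 872.2, 771.4 and 810.4 CPM in null males, against 873.4, 838.7 and 809.5 CPM in wild-type males. Genotypes overlapped in both sexes, and the change over both sexes was 0.0063 on the log2 scale with a 95% interval of -0.15 to 0.16.

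Rh5 and Rh6, the opsins of the R8 cells, differed from each other in null heads. Rh5 (FBgn0014019), a blue-sensitive opsin, lies on 2L from 12008153 to 12009832, plus strand, with 1572 exonic bases. It had 7247, 6410 and 7030 counts in null females, against 3220, 3454 and 3013 in wild-type females. As scaled levels these were 323.1, 247.0 and 263.1 CPM in null females and 110.8, 133.1 and 126.7 CPM in wild-type females. In males Rh5 had 230.5, 206.3 and 191.8 CPM in null heads, against 126.0, 126.7 and 112.1 CPM in wild-type heads. All 6 null libraries were above all 6 wild-type libraries, and all 3 null females were above all 3 null males.

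Rh5 rose 2.25-fold in null females, a log2 change of 1.17 (SE 0.12, 95% interval 0.91 to 1.42, adjusted p = 6.5e-05 by edgeR). In null males it rose 1.72-fold, a log2 change of 0.78 (SE 0.12, 95% interval 0.53 to 1.04, adjusted p = 0.0013). Over both sexes the log2 change was 0.98 (SE 0.082, adjusted p = 7.1e-06). It was the one opsin called in each sex separately; 7.75% of all genes tested were called in both. The rise in females was 1.03 without null female library 1 (adjusted p = 9.9e-05), and the call in both sexes held under every alternative tried.

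Rh6 (FBgn0019940), the green-sensitive opsin, lies on 3R from 15483158 to 15484699, plus strand. It had 866.8, 603.9 and 586.3 CPM in null females, against 597.8, 665.1 and 579.3 CPM in wild-type females. It had 687.4, 608.1 and 533.6 CPM in null males, against 663.3, 615.6 and 619.3 CPM in wild-type males. Genotypes overlapped in both sexes; library 1 of each null group was above all wild-type libraries, and the other null libraries lay among or below those of their sex. The change was 0.16 in females (SE 0.14, adjusted p = 0.41) and -0.05 in males (SE 0.14, adjusted p = 0.89); without null female library 1 it was -0.06 in females. The 95% interval over both sexes ran from -0.17 to 0.27.

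Rh2 (FBgn0003248), the ocellar opsin, lies on 3R from 18899423 to 18901019, plus strand. It had 273.0, 218.2 and 222.2 CPM in null females, against 179.2, 195.6 and 180.4 CPM in wild-type females. It had 225.7, 219.5 and 203.7 CPM in null males, against 195.4, 185.6 and 182.1 CPM in wild-type males. Null libraries were higher without overlap in both sexes. Rh2 rose in females by 0.36 on the log2 scale (SE 0.093, adjusted p = 0.013) and over both sexes by 0.28 (SE 0.066, adjusted p = 0.0063); in males its change of 0.20 did not pass (SE 0.093, adjusted p = 0.20). The call in females did not survive leaving out wild-type female library 3 (0.34, adjusted p = 0.054) or a fit of the female libraries alone (adjusted p = 0.058), and the change was 0.24 without null female library 1 (adjusted p = 0.033). In males Rh2 passed without null female library 1 (0.21, adjusted p = 0.046).

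Rh7 (FBgn0036260) lies on 3L from 12164205 to 12175482, minus strand, and was the scarcest opsin. It had 22.8, 26.9 and 29.9 CPM in null females, against 35.1, 30.4 and 34.8 CPM in wild-type females, and 31.1, 30.9 and 37.8 CPM in null males, against 37.1, 36.2 and 40.7 CPM in wild-type males. Null females were lower without overlap, whereas the males overlapped. Rh7 fell by 0.33 on the log2 scale in females (SE 0.12, adjusted p = 0.046) and by 0.26 over both sexes (SE 0.081, adjusted p = 0.027); the value in males was -0.19 (SE 0.11, adjusted p = 0.35). The call in females rests on almost every library: it was lost in 10 of 12 fits that left 1 library out, and held without null female library 3 or null male library 3. It was also lost with no low-count filter (adjusted p = 0.060) and with only the female libraries fitted (adjusted p = 0.092). Without null female library 1 the change in females was -0.24 (adjusted p = 0.12). Over both sexes Rh7 missed the threshold when any 1 of 5 libraries was left out: null male 1 or 2, wild-type female 1 or 3, or wild-type male 3.

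Counting opsin genes whose null and wild-type libraries did not overlap gave 4 higher and 1 lower in females, where 24.7% of all genes lay higher and 23.2% lower without overlap. In males 4 were higher and 0 lower, where the shares of all genes were 16.4% and 17.6%. The 4 higher genes were ninaE, Rh2, Rh3 and Rh5 in both sexes.

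**Figure D2:**
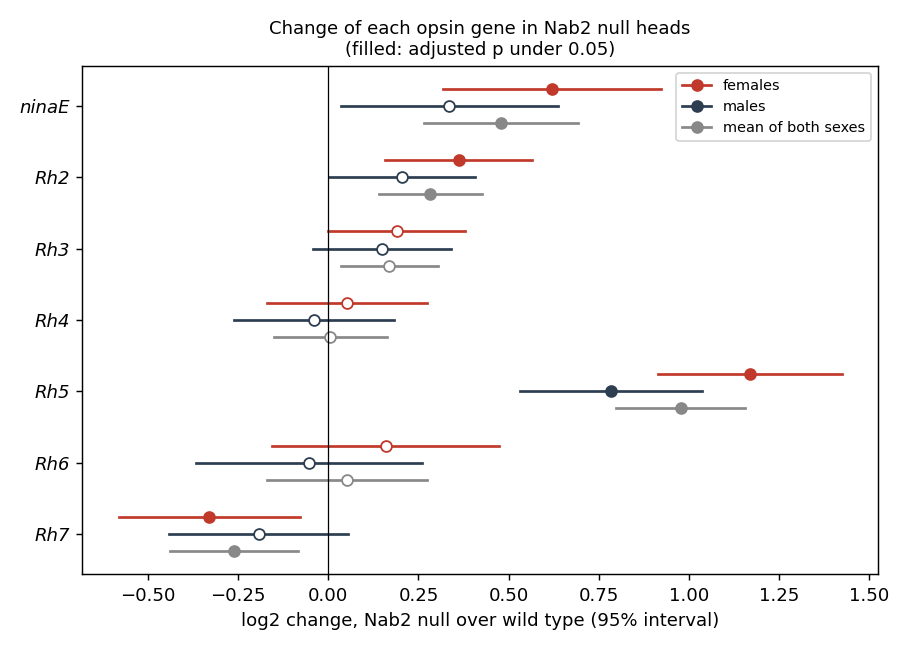
Log2 change of each opsin gene, Nab2 null over wild type, in females, in males and as the mean of both sexes; bars are 95% intervals from edgeR and filled points passed an adjusted p of 0.05. Rh5 is filled in all 3 rows, at 1.17, 0.78 and 0.98, and the intervals of Rh4 and Rh6 include 0 throughout.

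Because Nab2 itself lies on 3R, where 4 of the opsin genes are, the distances were recorded: Rh3 is 4.23 megabases from Nab2, ninaE 4.43, Rh2 5.41 and Rh6 8.83. Rh5 is on another chromosome, and Rh4 and Rh7 are on the other arm. The genetic background of the flies was not examined.

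Whether the null effect differed between the sexes was tested directly, and no opsin passed. The difference of the log2 change, female minus male, was 0.38 for Rh5 (SE 0.16, unadjusted p = 0.036, adjusted p = 0.43) and 0.28 for ninaE (SE 0.20, adjusted p = 0.49). By edgeR 0 of 7 opsins passed and 1 had an unadjusted p under 0.05; DESeq2 also called 0. Over all genes tested, 0.00891% passed this test, which is 1 gene of the 1297 with an unadjusted p under 0.05.

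Between the sexes, wild-type heads showed no called opsin. Of 7 genes, 0 passed in edgeR, 0 had an unadjusted p under 0.05 and DESeq2 called 0, where edgeR called 3.37% of all genes. Rh3 was lower in wild-type males than in wild-type females without overlap (-0.17, adjusted p = 0.36), as were 15.0% of all genes. Rh7 was higher in wild-type males without overlap (0.19, adjusted p = 0.43), as were 15.3% of all genes. In null heads, male over female, 1 opsin was called, and it was lower, where 29.1% of all genes were called and 16.0% were lower. Rh5 averaged 210 ± 19.5 CPM in null males and 278 ± 40.1 CPM in null females (SD, n = 3 each), a log2 difference of -0.41 (SE 0.12, adjusted p = 0.024 by edgeR). That call was lost without null female library 1 (-0.27), null male library 2 (-0.40) or null male library 3 (-0.35). Rh7 averaged 33.3 ± 3.96 CPM in null males and 26.6 ± 3.56 CPM in null females (0.32, adjusted p = 0.053), just short of the threshold. It passed with RLE scaling (adjusted p = 0.044), with library totals (0.029), by DESeq2 (0.029) and without null female library 3 (0.028). Rh3 was lower in null males without overlap (-0.21, adjusted p = 0.092). Rh3 and Rh5 were lower without overlap and Rh7 higher, where 25.3% and 19.5% of all genes were. The null male and null female contrasts with wild type and these sex contrasts share libraries.

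Set per kilobase of exon, so that genes can be compared with each other, the opsins kept nearly the same order in all 4 groups. In null females ninaE was at 9992 ± 1835 CPM per kb, followed by Rh4 at 598 ± 75.4, Rh6 at 487 ± 112, Rh3 at 366 ± 38.9, Rh5 at 177 ± 25.5, Rh2 at 174 ± 22.4 and Rh7 at 6.62 ± 0.89 (SD, n = 3). Rh4 and Rh6 overlapped there, as did Rh5 and Rh2, so neither pair could be ordered. In wild-type females ninaE was at 6502 ± 355 CPM per kb, followed by Rh4 at 576 ± 43.5, Rh6 at 436 ± 32.1, Rh3 at 321 ± 10.6, Rh2 at 136 ± 6.67, Rh5 at 78.6 ± 7.30 and Rh7 at 8.32 ± 0.66 (SD, n = 3). Males of both genotypes had the order of the wild-type females, and in these 3 groups no neighbours in the order overlapped. Rh2 stood at 158 ± 8.32 and Rh5 at 133 ± 12.4 CPM per kb in null males, against 138 ± 5.04 and 77.4 ± 5.25 CPM per kb in wild-type males. The exonic lengths come from the annotation given here, which may not be the one used for counting.

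**Figure D3:**
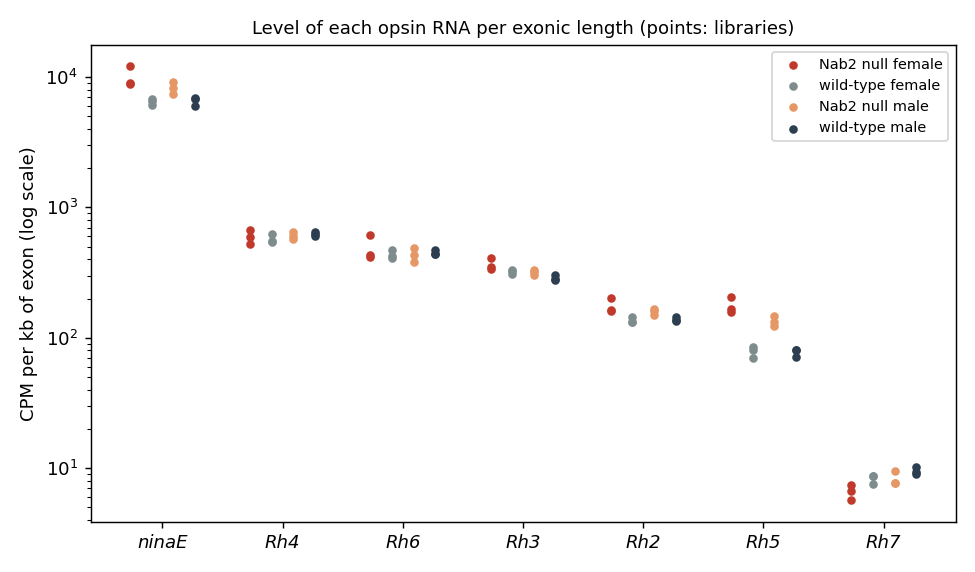
Level of each opsin RNA in CPM per kilobase of exon on a log axis, 1 point per library, with genes in the order of the wild-type libraries. ninaE is the highest and Rh7 the lowest in every library, and Rh5 reaches the level of Rh2 in the null females.

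Ratios between opsins within a library do not depend on how libraries are scaled to each other. In the R8 pair, Rh5 counts were 37.3%, 40.9% and 44.9% of Rh6 counts in null females, against 18.5%, 20.0% and 21.9% in wild-type females. They were 33.5%, 33.9% and 35.9% in null males, against 19.0%, 20.6% and 18.1% in wild-type males. The lowest null library was well above the highest wild-type library. The log2 ratio was higher in null heads by 1.03 in females and 0.84 in males, each with a two-sided exact permutation p of 0.1, the smallest that 3 against 3 libraries can give. With genotype permuted within each sex over all 12 libraries, a test added after the data had been seen, the mean difference of 0.93 had an exact p of 0.005, the smallest that its 400 arrangements can give.

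In the R7 pair, Rh3 counts were 62.5%, 66.1% and 61.1% of Rh4 counts in null females, against 58.3%, 54.3% and 59.8% in wild-type females. They were 48.0%, 57.4% and 57.0% in null males, against 44.0%, 46.6% and 51.7% in wild-type males, with overlap. The log2 ratio differed by 0.14 in females (exact permutation p = 0.1) and 0.19 in males (exact permutation p = 0.2). Over both sexes it differed by 0.16 (exact permutation p = 0.03, in the test added after the data had been seen). Leaving out any 1 of 5 libraries (null female 2, null male 2, null male 3, wild-type male 1, wild-type male 2) gave an exact p over both sexes of 0.05 to 0.065.

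The ninaE share of all opsin counts was 86.6%, 86.0% and 85.8% in null females, against 83.2%, 82.4% and 82.1% in wild-type females, and 85.4%, 83.8% and 85.5% in null males, against 82.7%, 83.0% and 81.5% in wild-type males. The genotypes did not overlap in either sex. The share was higher in null heads by 3.57 percentage points in females and 2.50 in males, each with a two-sided exact permutation p of 0.1, the smallest possible. Over both sexes it was higher by 3.04 percentage points. The test over all 12 libraries that was added after the data had been seen gave a two-sided exact permutation p of 0.005, the smallest possible. All 7 opsins together made up 1.70% ± 0.19 of the gene counts in null females and 1.26% ± 0.06 in wild-type females (SD, n = 3 each). In males they made up 1.58% ± 0.15 in null heads and 1.32% ± 0.11 in wild-type heads.

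**Figure D4:**
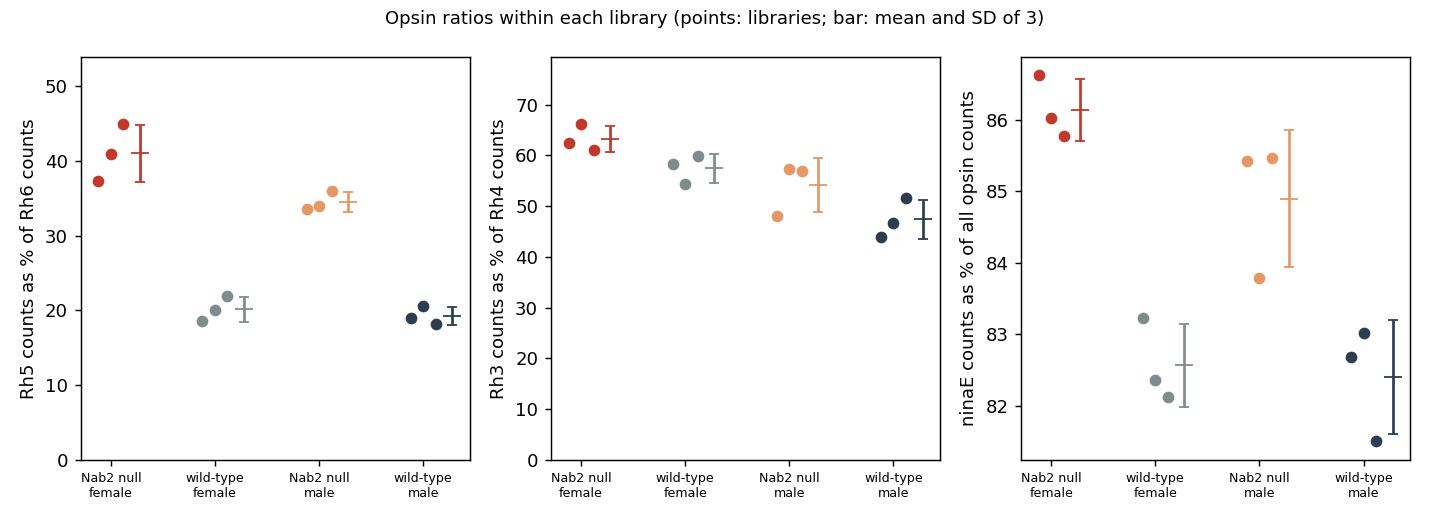
Rh5 counts as a percentage of Rh6 counts, Rh3 counts as a percentage of Rh4 counts, and ninaE counts as a percentage of all opsin counts, per library, with the mean and SD of 3. The first 2 axes start at 0 and the third does not; Rh5 is 33.5% to 44.9% of Rh6 in null libraries and 18.1% to 21.9% in wild-type libraries.

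All 21 pairs of opsin genes were then compared in the same way over both sexes, also after the data had been seen. Of these, 16 ratios differed between null and wild-type heads at an adjusted p under 0.05 (exact permutation tests, adjusted over the 21 pairs). The share among pairs of other genes was not computed, so this count has no background to be read against. Of all single genes tested, 34.4% were called over both sexes. Rh5 was higher in null heads relative to each of the other 6 opsins, from 0.50 on the log2 scale against ninaE to 1.24 against Rh7, each with an adjusted p of 0.0081 from the smallest exact p possible. ninaE was higher relative to each of the opsins other than Rh5, from 0.19 against Rh2 (adjusted p = 0.023, exact) to 0.74 against Rh7 (adjusted p = 0.0081, exact). The ratio of Rh4 to Rh6, the pair of the yellow type, differed by -0.04 (exact permutation p = 0.61). The other ratios that did not pass were Rh2 to Rh3, Rh3 to Rh6, Rh4 to Rh7 and Rh6 to Rh7, with adjusted p from 0.074 to 0.23 in exact tests. These ratios share genes and libraries and are not independent of each other.

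The genes whose log2 CPM followed each opsin most closely over the 12 libraries were listed by Pearson's r as a description; the points share the library scaling and the genotype difference. For ninaE they were CG5946 (0.99), CG11089 (0.99), CG42369 (0.99), Capa (0.98) and Irp-1B (0.98). For Rh5 they were cbs (0.98), Tsp42Ek (0.98) and CR44994 (0.98). For Rh2 they were Reg-2 (0.97), Cyp311a1 (0.97) and snoRNA:Psi18S-1389a (0.97), and for Rh3 CG8738 (0.96), alpha-Est3 (0.95) and CG4364 (0.95). The highest values for Rh4 were lower, with CG15537 (0.91), Pal2 (0.91) and Pask (0.89). Rh6 was followed by CG42361 (0.94), Not10 (0.94) and atms (0.93), and Rh7 by CG1647 (0.97), jing (0.96) and CG3277 (0.96). No opsin was in these short lists of another, although ninaE correlated with Rh2 at 0.96 and with Rh5 at 0.94, and Rh2 with Rh5 at 0.94. The R7 pair, Rh3 and Rh4, was at 0.06. Rh7 correlated negatively with every other opsin, from -0.14 with Rh4 to -0.85 with Rh2.

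Downstream of the opsins, phototransduction passes the signal from rhodopsin through a Gq protein and phospholipase C to the TRP channels, and arrestins end it. Of 24 genes of this cascade, 6 were called higher and 2 lower in null females, 0 higher and 1 lower in null males, and 6 higher and 3 lower over both sexes. The shares of all genes called were 18.2% higher and 13.6% lower in females, and 18.4% higher and 16.0% lower over both sexes. In males 9.93% of all genes were called in either direction, and 4.89% were called higher. The 6 of 24 called higher in females and over both sexes were thus near the share of all genes. The median log2 change of the 24 genes was 0.08 in females, 0.04 in males and 0.04 over both sexes, against 0.01, -0.00 and 0.00 for all genes tested. Arr1, an arrestin, rose by 0.32 over both sexes (adjusted p = 0.011 by edgeR), and stops, which keeps the phospholipase stable, rose by 0.32 (adjusted p = 0.018). inaF-B, a small TRP-associated protein, rose by 0.17 (adjusted p = 0.016), though not with library totals as the only scaling (0.096, adjusted p = 0.16). Galphaq, the alpha subunit of the Gq protein, fell by 0.32 over both sexes (adjusted p = 0.0016) and fell in each sex by itself (-0.31 in females and -0.33 in males). It was the one gene of this list called in males.

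The other called genes of the cascade depended on single libraries. retinin, a lens protein gene included in this list, was at 0.35 over both sexes, and its call was lost in 5 of 12 fits with 1 library left out. inaC, the eye protein kinase C, was at 0.23, and missed the threshold when library 1 of either wild-type group was left out. The channel gene trp was at 0.26, inaE, a lipase needed for TRP opening, at -0.30 and inaD, the scaffold protein, at -0.16; their calls were lost in 8, 8 and 10 of the 12 fits. The most abundant arrestin, Arr2, was at 0.28 (adjusted p = 0.056), norpA, the phospholipase C, at 0.11 (adjusted p = 0.35), and ninaC, a myosin kinase of the photoreceptor, at 0.18 (adjusted p = 0.062), and none of these passed.

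Of 18 genes for opsin maturation, transport and chromophore supply, 17 were tested; Xport-A had 0 counts in every library. Over both sexes 0 were called higher and 2 lower, where 18.4% and 16.0% of all genes were, with a median of -0.00 on the log2 scale. In females 1 was higher and 4 lower, where 18.2% and 13.6% of all genes were. In males 0 of the 17 were called, where 9.93% of all genes were. Crag, which is needed for rhodopsin transport to the rhabdomere, fell by 0.23 (adjusted p = 0.014). ninaG, an oxidoreductase that makes the fly's 3-hydroxy chromophore, fell by 0.34 (adjusted p = 0.020), but missed the threshold without null male library 1 or wild-type female library 3. ninaA, the chaperone of Rh1, was at -0.11 (adjusted p = 0.44), and chp, a membrane protein of the rhabdomere, was at -0.25 (adjusted p = 0.053). In females chp was 1 of the 4 called lower (-0.43, adjusted p = 0.026 by edgeR), while in males it was at -0.07 (adjusted p = 0.83).

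Of 22 genes that regulate opsin expression or photoreceptor fate, 3 were called higher and 5 lower over both sexes, with a median of -0.08 against 0.00 for all genes. Of all genes 34.4% were called, so 8 of 22 was at the share of all genes. In R8, melt promotes Rh5 and wts promotes Rh6 by repressing each other. Over both sexes melt fell by 0.43 on the log2 scale (SE 0.097, adjusted p = 0.0052 by edgeR), the opposite in sign to Rh5. By sex, melt was called in females (-0.66, adjusted p = 0.0047) and not in males (-0.20, adjusted p = 0.42). Over both sexes wts was at -0.21 (adjusted p = 0.11). ss, which sets the Rh4 fate in R7, was at -0.57 (adjusted p = 0.023), which missed the threshold without null male library 1 or 2 or library 1 of either wild-type group. salr, a spalt gene needed for R7 and R8 opsins, was at -0.35 (adjusted p = 0.019), which missed it without wild-type female library 2. By sex, salr was called in females (-0.60, adjusted p = 0.0098) and not in males (-0.10, adjusted p = 0.74).

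Among the other regulators, B-H2 and eya fell by 0.34 and 0.23 (adjusted p = 0.0031 and 0.0019), and both were called in each sex. Hr38, a nuclear receptor whose RNA follows neuronal activity, rose by 1.05 (SE 0.25, adjusted p = 0.0078). mirr and caup, Iroquois genes of the dorsal eye, were at 0.43 and 0.42; the call of mirr was lost in 7 of the 12 fits, and both were lost with library totals as the only scaling. The activators gl, Pph13 and oc were at -0.08, 0.13 and 0.09, and sens, which marks R8, had at most 23 counts in any library and was at -0.06; none of these passed.

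**Figure D5:**
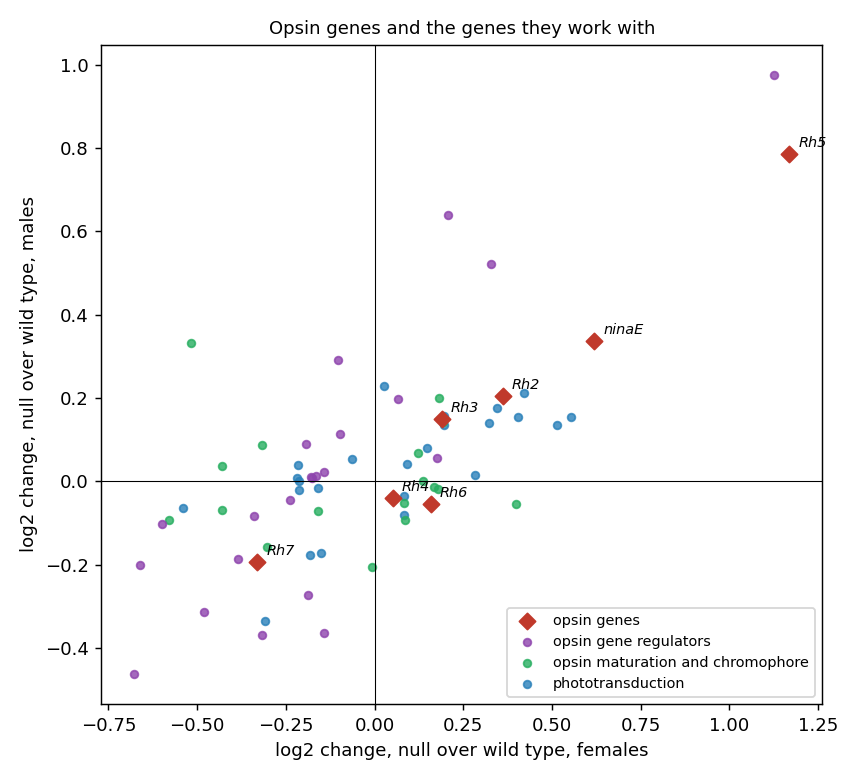
Log2 change of each opsin gene and of the genes on the 3 lists around it, null over wild type, in females (horizontal) and in males (vertical). Rh5 lies at 1.17 and 0.78, with 1 regulator, Hr38, near it at 1.13 and 0.98, and most other genes of the lists lie within 0.7 of 0 on both axes.

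Some genes listed as markers of tissues or cells in the head also moved with genotype, and whether photoreceptors make their RNA too was not examined. Of all genes 18.4% were called higher and 16.0% lower over both sexes, which the counts below can be read against. Of 5 fat body genes 3 were higher over both sexes and 0 lower, and their summed level ran from 8011 to 10533 CPM in null females, against 2553 to 3465 CPM in wild-type females. In males the sum ran from 4031 to 7383 CPM in null heads, against 2778 to 4052 CPM in wild-type heads. Over both sexes Lsp2, a larval serum protein, rose by 2.39, apolpp, the lipophorin precursor, by 1.53, and FASN1, a fatty acid synthase, by 0.65. In males by themselves apolpp was at 0.81 and was not called (adjusted p = 0.24 by edgeR). Of 4 haemocyte genes Hml fell by 2.96 while NimC1 and Sr-CI rose by 0.42 and 0.37, and the sum of the list was 470 to 589 CPM in null females, against 569 to 620 CPM in wild-type females. In males it was 355 to 372 CPM in null heads, against 446 to 487 CPM in wild-type heads, without overlap.

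Of 5 clock neuron genes 4 were called higher and 0 lower over both sexes, where 18.4% and 16.0% of all genes were, with Clk at 0.81, Pdf at 0.56, cry at 0.45 and per at 0.42, the call of per being lost in 6 of the 12 fits. By sex, 3 of the 5 were called higher in females and 2 in males, where 18.2% and 4.89% of all genes were. The change of cry was 0.72 in females (adjusted p = 0.0066 by edgeR) and 0.18 in males (adjusted p = 0.56), and per was called in neither sex. The sum of the 5 genes ran from 859 to 875 CPM in null females, against 543 to 676 CPM in wild-type females. In males the sum ran from 790 to 1011 CPM in null heads, against 535 to 723 CPM in wild-type heads. Rh7 went the other way from these genes, and whole heads do not show which cells the RNA came from. The 5 neuron genes summed to 1123 to 1574 CPM in null females, against 1697 to 1771 CPM in wild-type females, with Syt1 at -0.24, a call lost in 8 of the 12 fits. In males they summed to 1793 to 1935 CPM in null heads, against 1707 to 2315 CPM in wild-type heads.

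Of 4 glial genes repo and moody fell by 0.26 and 0.27 over both sexes. Both were called in females (-0.34 and -0.36) and neither in males (-0.18 each, adjusted p = 0.13 and 0.28 by edgeR). Gs2 was called at 0.26 over both sexes, but it rose in females by 0.56 (adjusted p = 0.0032) and was at -0.03 in males (adjusted p = 0.92). Of 5 muscle genes 0 were called in either sex. Of 5 pigment and cone cell genes 4 were tested, of which st was at 0.21 and cn at -0.50, with calls lost in 7 and 9 of the 12 fits. The eye pigment transporter gene w had at most 6 counts in any library of either genotype. The part of any of these tissues in the opsin values was not tested.

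The authors' deposited table of DESeq2 results gives the same opsin calls as edgeR in females and in males. In the authors' deposited table Rh5 was at 1.10 in females and 0.76 in males, and ninaE at 0.57 in females and 0.33 in males, the last with an adjusted p of 0.059. Its contrast of null females over null males lists Rh5 at 0.36 (adjusted p = 0.011) and also Rh7 at -0.34 (adjusted p = 0.031) in the authors' deposited table, where edgeR left Rh7 uncalled.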

How the data were processed

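Per the submitters' processing notes, reads from a stranded kit were processed with STAR 2.5.2b-0, featureCounts 1.6.0.3 and DESeq2 2.11.40.1 on BDGP6; the counting annotation and strand setting are not given in the sources used here. The values analysed are raw counts per gene, as the authors deposited them for each library. The authors' deposited table of comparisons holds log2 fold changes and adjusted p-values, used here only as named. The authors' normalized count table was not used here.

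Counts were filtered with edgeR's filterByExpr (edgeR 4.0.16, R 4.3.3), scaled with TMM and fitted with the quasi-likelihood model over all 4 groups. Contrasts were null over wild type in each sex, their mean and their difference (female minus male), and male over female for null and for wild-type heads, with Benjamini-Hochberg adjustment over 11223 genes. The common biological coefficient of variation was 13.5%. SEs are the log2 change divided by the root of the F statistic. Ratios used two-sided exact permutation tests. The design text calls the 3 libraries of a group biological replicates.

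The opsins were given by name. The gene lists, tests and alternatives were chosen with earlier results of these data known. Genes named from a list are the called ones with the greatest changes over both sexes, up to 6 a list, plus norpA, trp, Arr1, Arr2, ninaA, ninaC, chp, gl, Pph13, oc, ss, sens, melt and wts; inaC, inaF-B, inaD, B-H2, eya, Xport-A and w were named beyond that rule. Alternatives were RLE scaling, library totals, no filter, DESeq2 1.42.0, fits of the compared groups alone, replicate number as a block, and each library left out. Opsin sequences are not printed.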

Additional observations from a re-analysis of the deposited data

How the results depend on the processing

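No called opsin reversed under any of the 18 alternatives. Nor did a list gene called over both sexes, under the 17 alternatives that apply there. In the separate sexes, called list genes were only counted in each refit. Of 1507 alternative values of single genes, 1338 kept their direction and side of the threshold and 34, all uncalled, reversed. The calls of Rh5 in females (1.03 to 1.25) and in males (0.71 to 0.85) and of ninaE in females (0.45 to 0.70) held throughout. In females 4 opsins were called: 2 with only the female libraries fitted and 2 to 4 with 1 library left out (2 without wild-type female library 3). The share of all genes called in females also fell in those refits. It was 31.8% as reported, 21.1% with only the female libraries and 18.1% without wild-type female library 3. With 1 library left out it reached at most 33.4%, without null female library 2. In males 1 opsin was called, and 1 to 3 with 1 left out (3 without null female library 1). The share of all genes called in males was 9.93% as reported and 5.49% to 16.1% with 1 left out, highest without null female library 1. Of the list genes, 30 were called in females, 18 with only the female libraries and 15 to 33 with 1 left out. In males 9 list genes were called, and 4 to 11 with 1 left out. The shares of all genes just given apply to the list genes too, and neither the opsin counts nor the list counts were tested against them. Between null males and null females 1 opsin was called. It was 2 with RLE scaling, 2 by DESeq2 and 2 with the replicate block, Rh5 and Rh7 each time (Rh7 adjusted p = 0.022 by edgeR with the block). It was 0 with only null libraries, and 0 to 2 with 1 left out. Of all genes 29.1% were called in this contrast, 27.8% with RLE scaling, 22.1% by DESeq2 and 34.4% with the block. The share was 5.29% with only null libraries, and 7.96% to 32.2% with 1 left out. With library totals 26.2% of all genes were called, and the 1 opsin called was Rh7 (0.45) in place of Rh5 (-0.27). This scaling moved the median of all genes to -0.10 in females, against 0.01. The ratio of Rh3 to Rh4 over both sexes was 0.14 to 0.21 with 1 library left out. Null effects that reversed were Rh4 over both sexes with RLE (-0.0020) and, with library totals, Rh4 in females (-0.066) and over both sexes (-0.068), Rh6 over both sexes (-0.025) and the sex difference of Rh3 (-0.047). Sex contrasts that reversed with library totals were Rh5 in wild-type (0.030) and Rh2 in null heads (0.0014). With 1 library left out, Rh4 ran from -0.059 to 0.14 in females, -0.085 to 0.0034 in males and -0.047 to 0.049 over both, and Rh6 from -0.057 to 0.26, -0.15 to 0.035 and -0.053 to 0.10; sens ran from -0.19 to 0.19 over both. The sex difference of the effect ran from -0.067 to 0.095 for Rh3, -0.024 to 0.18 for Rh4 and -0.0082 to 0.31 for Rh6. Male over female, wild-type values ran from -0.031 to 0.064 for ninaE, -0.0095 to 0.062 for Rh2 and -0.097 to 0.035 for Rh5, and null values from -0.063 to 0.13 for Rh4 and -0.27 to 0.046 for Rh6. In these reversals the cause was not tested. Deviations of same-numbered libraries correlated at -0.28 to 0.40 (median 0.12, over 0.1 in 10 of 18 pairs), against a median of -0.13 for other pairs (over 0.1 in 9 of 36); all 6 pairs among the libraries numbered 1 were at 0.23 to 0.36, and 7 of 12 libraries correlated best with their own number. As not every same-numbered pair exceeded 0.1, the numbers were not taken to pair the samples. With replicate number as a block, 4 opsins were called in females, 1 in males and 4 over both. Of all genes 36.2%, 12.4% and 37.3% were called in that refit. In males and females separately, 3 against 3 libraries cannot give an exact p below 0.1.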
